A study of Mus musculus with 21 samples.

Results

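The 10 genes described here encode proteins that neutrophils store in their secondary (specific) and tertiary (gelatinase) granules, and were followed across 21 single-colour Agilent mouse arrays from a study of the transcription repressors Bach1 and Bach2. They were taken by name, as Ltf, Ngp, Camp, Lcn2, Mmp8, Mmp9, Retnlg, Chil3, Fcnb and Cd177, and are 10 of the 20018 gene symbols to which a probe could be matched through its RefSeq accession. Camp had 2 probes and each other member 1, so that 11 probes were found, and the brighter Camp probe stands for the gene. The 7 groups held 3 arrays each. Common lymphoid progenitors (CLPs), bone marrow cells with lymphoid potential, came from wild-type (WT) mice and from compound Bach1/Bach2-deficient (DD) mice. Multipotent progenitors (MPPs) of WT mice, sorted as Lin-, c-kit+, Sca-1+ and Flt3mid, were pooled from 4 mice in each experiment and held overnight in a medium with SCF (50 ng/ml), IL-6 (10 ng/ml) and IL-3 (5 ng/ml). They were then infected with a retrovirus carrying GFP alone (MSCV-GFP, the control vector) or Bach2 with GFP (Bach2 vector), and the GFP+ fraction was collected once 2 days in multilineage medium had passed. Another group with the Bach2 vector had 24 h of multilineage culture and 6 days under B-lineage conditions, and was sorted as GFP+ B220+, so that it differs from both other MPP groups in time, medium and gate and has no control-vector counterpart among these arrays. Follicular B (FoB) cells of WT and Bach2KO mice had received 10 ug/ml of an anti-IgM fragment for 24 h. CLP RNA was pooled from mice after only partial removal of lineage-positive cells, CD11b+ and Gr-1+ cells among them, and no sort gate is given for the FoB cells. Neither age nor sex of the animals is stated in the labels.

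Neutrophil granules form in sequence during maturation. Primary granule proteins such as myeloperoxidase and elastase are made in promyelocytes, secondary granule proteins in myelocytes and metamyelocytes, and tertiary granule proteins in band cells, so that secondary and tertiary granule transcripts mark later stages than primary ones. The factor C/EBP-epsilon, encoded by Cebpe, is required for the secondary granule program in mice, and Bach2 is known to hold down myeloid genes in lymphoid progenitors. Among the members, Ltf (lactoferrin, which binds iron), Ngp (a cystatin-like granule protein), Camp (the cathelicidin precursor of an antimicrobial peptide) and Lcn2 (lipocalin 2, which binds bacterial siderophores) are secondary granule proteins. Mmp8 (neutrophil collagenase) and Mmp9 (gelatinase B) are matrix proteases. Retnlg, a resistin-like secreted protein, and Chil3, a chitinase-like lectin also called Ym1, are abundant in mouse neutrophils. Fcnb (ficolin B) recognises carbohydrates in the lectin pathway of complement, and Cd177 is a membrane-anchored surface protein of neutrophils.

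Levels are log2 spot signals minus the log2 of that array's 75th percentile over gene probes, so that 0 is a signal at that percentile, and a level below the scanner software's well-above-background call gives only a bound. The 75th percentile itself was 2858 to 5127 signal units on CLP arrays, 2071 to 3377 on MPP arrays and 97.3 to 357.5 on FoB arrays, and 50.9% to 81.5% of spots were well above background. The brighter Bach2 probe was at 3.49, 3.06 and 3.55 in WT FoB cells and at -0.07, -1.01 and -0.09 in Bach2KO FoB cells, a 13.5-fold fall (limma, adjusted p = 0.00092). It was at 3.46, 1.49 and 2.38 in WT CLPs against 1.17, 0.10 and -0.27 in DD CLPs, with no overlap but an adjusted p of 0.999. In 2-day MPPs with the Bach2 vector it was 1.15 ± 0.60 (log2 ± SE) above the control vector, which did not pass either (adjusted p = 0.775), whereas the dimmer Bach2 probe was at -1.25, -3.57 and -3.90 with the Bach2 vector and at -8.57, -7.11 and -6.34 with the control vector. On the Bach2-vector B220+ arrays the brighter probe was at -2.75, -2.49 and -4.10. Its difference from the control vector was -0.12 ± 0.60 (limma, adjusted p = 0.91). The dimmer probe was at -5.12, -5.02 and -1.54 on these arrays. Whether these probes lie inside the deleted parts is not given, and Bach1 passed in no comparison. CLP arrays carried all 6 CLP markers looked at above background and FoB arrays all 5 follicular B-cell markers. Of 7 B-lineage markers, 5 were above background on all 3 B220+ arrays and 6 on all 3 arrays of each 2-day MPP group. Their summed signal was 9.95 to 16.8 times the 75th percentile in the B220+ cells, 8.18 to 13.3 with the control vector and 11.2 to 13.3 with the Bach2 vector. Of the 6 tested, 0 passed against either MPP group. Among single B-cell genes in the B220+ cells, Ms4a1, which encodes CD20, was below background on all 3 arrays. Cd79a, a chain of the B-cell receptor complex, was at -5.59, -4.61 and -3.87 in these cells, beside -5.50 to -3.71 in the 2-day MPP groups. In the same cells Dntt, the lymphoid terminal transferase, was at 5.41, 5.67 and 5.65, 139.9-fold above the control vector (adjusted p = 5.656e-06).

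All 10 members were well above background somewhere, but each had its own profile over the groups, as the plot of levels on each array shows. Bach2-vector B220+ cells had the highest group mean for 4 members (Ltf, Camp, Chil3 and Fcnb), Bach2KO FoB cells for another 4 (Ngp, Mmp9, Retnlg and Cd177) and control-vector MPPs for the remaining 2 (Lcn2 and Mmp8). For Camp, Mmp8, Chil3 and Fcnb the highest group did not overlap with the group next in mean. Mmp9 was above background on only 1 array of its highest group, at -4.72. Its levels of -6.23 and -5.22 there are bounds, beside -6.74 to -6.31 in control-vector MPPs, all above background. The lowest level called well above background was -7.08 to -5.60 on Bach2KO FoB arrays and -9.02 to -8.07 on control-vector MPP arrays. The order of these groups is thus not resolved for Mmp9. For the remaining members the 2 highest groups overlapped. Groups lower in mean could still hold a higher single array. Camp was at 4.17 on WT CLP replicate 3 and at 4.02 on DD CLP replicate 2, above all B220+ arrays. Mmp9 was at -3.67 on WT CLP replicate 3, above all Bach2KO FoB arrays. Cell type, RNA amplification and experiment cannot be told apart between the 3 experiments, so no test was made across them. In bulk RNA, a change in the number of cells that carry a transcript and a change in transcript per cell cannot be told apart either.

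**Figure D1:**
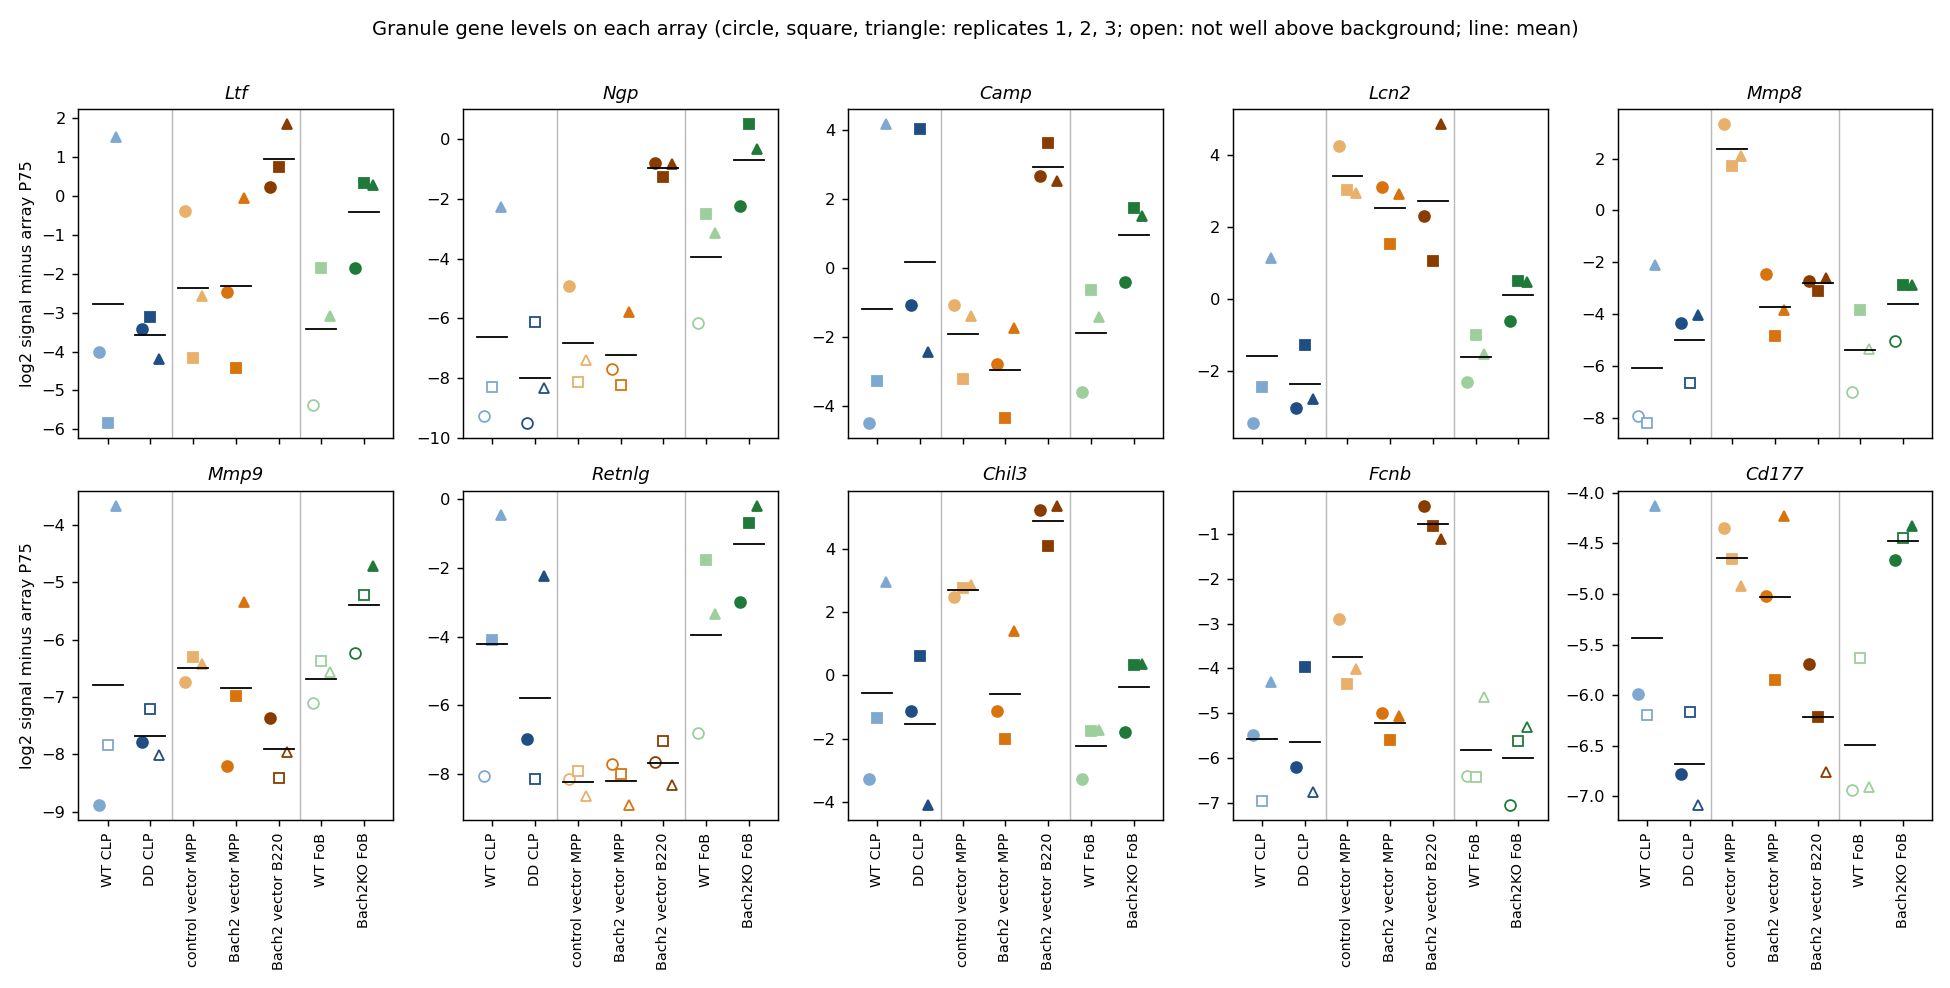
Level of each granule gene (log2 signal minus the array's 75th percentile, y axis, scaled separately for each gene) on the 21 arrays of 7 groups; points are arrays, open points are not well above background, and lines are group means. Mmp8 is highest on the 3 control-vector MPP arrays (1.70 to 3.32), Retnlg is below background on all 9 MPP arrays, and WT CLP replicate 3 is the highest of its group for all 10 genes.

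For 9 of the 10 members RefSeq (mouse assembly GRCm38.p6) gave a promoter window of 250 bases before and 50 after the gene start. The windows of the 5 members that moved most in the cultured progenitors are shown, read 5′ to 3′ along the gene, because these genes moved in different directions and a reader may want to set them side by side. The Mmp8 window is chr9:7558179-7558478 on the plus strand, that of Chil3 is chr3:106167515-106167814 on the minus strand, that of Fcnb is chr2:28084829-28085128 on the minus strand, that of Camp is chr9:109849407-109849706 on the minus strand and that of Ngp is chr9:110419558-110419857 on the plus strand. Capitals mark matches, on either strand, to TTNNGCA, a relaxed core of the C/EBP site, and to GAGGAAG, a core of the PU.1 site; no 2 matches overlap.
Mmp8: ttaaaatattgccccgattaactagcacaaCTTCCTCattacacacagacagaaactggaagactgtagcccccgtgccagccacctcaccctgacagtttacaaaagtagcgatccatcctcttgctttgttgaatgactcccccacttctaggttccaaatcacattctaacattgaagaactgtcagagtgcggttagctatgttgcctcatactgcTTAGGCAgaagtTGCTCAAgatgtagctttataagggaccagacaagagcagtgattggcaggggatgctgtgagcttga
Chil3: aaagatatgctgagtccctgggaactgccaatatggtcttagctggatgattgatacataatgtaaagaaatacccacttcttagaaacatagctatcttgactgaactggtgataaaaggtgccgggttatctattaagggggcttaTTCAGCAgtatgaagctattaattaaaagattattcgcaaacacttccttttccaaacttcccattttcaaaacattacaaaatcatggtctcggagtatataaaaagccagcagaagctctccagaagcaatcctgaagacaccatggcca
Fcnb: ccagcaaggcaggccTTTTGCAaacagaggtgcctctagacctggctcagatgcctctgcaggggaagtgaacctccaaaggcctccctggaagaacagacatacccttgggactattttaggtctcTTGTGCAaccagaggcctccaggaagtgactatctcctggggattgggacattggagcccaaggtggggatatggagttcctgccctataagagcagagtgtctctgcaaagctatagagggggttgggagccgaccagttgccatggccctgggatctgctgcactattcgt
Camp: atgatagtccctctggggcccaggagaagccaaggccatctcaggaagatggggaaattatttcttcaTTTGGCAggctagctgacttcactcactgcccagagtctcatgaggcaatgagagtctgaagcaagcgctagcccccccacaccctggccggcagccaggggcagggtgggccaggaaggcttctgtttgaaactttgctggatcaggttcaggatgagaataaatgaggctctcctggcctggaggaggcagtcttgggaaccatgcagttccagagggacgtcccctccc
Ngp: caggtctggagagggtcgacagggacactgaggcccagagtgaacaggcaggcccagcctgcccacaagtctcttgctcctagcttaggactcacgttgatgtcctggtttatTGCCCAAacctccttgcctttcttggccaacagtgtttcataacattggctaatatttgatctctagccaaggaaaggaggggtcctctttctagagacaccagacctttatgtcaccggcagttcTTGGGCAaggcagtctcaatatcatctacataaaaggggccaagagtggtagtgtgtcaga
The letters TTNNGCA or their reverse complement occurred in 8 of the 9 member windows, all but that of Cd177, and in 36.0% of 32851 mouse promoter windows of the same length. GAGGAAG occurred in 2 of 9, those of Lcn2 and Mmp8, against 13.6% of all windows. TGANTCA, the AP-1 core inside the longer Maf recognition element that Bach factors bind, was in none of the 9 (0), and in 7.81% of all windows. These are matches of letters in a short window and say nothing of binding. Camp, Ngp and Ltf lie on chromosome 9, with 8 protein-coding genes between Camp and Ngp and 20 between Ngp and Ltf.

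In MPPs with the Bach2 vector against the control vector, the question is what added Bach2 does to these genes during 2 days of multilineage culture. Mmp8, whose product cleaves collagen, was the member that fell: it was at 3.32, 1.70 and 2.11 with the control vector and at -2.45, -4.85 and -3.85 with the Bach2 vector (replicates 1, 2 and 3). All Bach2-vector arrays lay below all control arrays, and the fall was 68.3-fold (-6.09 ± 0.61, log2 ± SE, n = 3 against 3; limma, adjusted p = 0.00241). That is 1 of 9 members tested, where 0.723% of 17008 genes passed as lower and 1.79% in either direction; Retnlg was below background on every MPP array and was not tested. On the 4 arrays of slide 2 alone, Mmp8 was again the 1 member that passed (0.67% of genes passed as lower). Chil3 was at 2.46, 2.74 and 2.86 with the control vector and at -1.13, -2.00 and 1.39 with the Bach2 vector. The groups did not overlap and the mean was 9.64-fold lower, but this passed only with the replicate number as a block (adjusted p = 0.0829 without the block and 0.0461 with it), where 0.829% of genes passed as lower; without Bach2-vector replicate 3 it passed as well (0.329% of genes as lower). Fcnb was at -2.89, -4.35 and -4.01 against -4.99, -5.61 and -5.07, also without overlap, and did not pass (-1.47 ± 0.40, adjusted p = 0.152, or 0.0702 with the block). These 3 of 9 members had no overlap in the lower direction, as had 7.29% of all genes tested.

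None of the 4 genes Ltf, Ngp, Camp and Lcn2 passed between the vectors, with or without the replicate block. Ltf was at -0.38, -4.17 and -2.56 with the control vector and at -2.47, -4.43 and -0.06 with the Bach2 vector, a span of several log2 units within each group. Camp was at -1.07, -3.24 and -1.41 against -2.79, -4.37 and -1.74, and Lcn2 at 4.25, 3.02 and 2.95 against 3.12, 1.53 and 2.91. Both pairs of groups overlapped, and the differences were -1.06 ± 0.74 for Camp and -0.89 ± 0.88 for Lcn2. Within pairs both were lower with the Bach2 vector in all 3, Camp by -1.72, -1.13 and -0.33 and Lcn2 by -1.13, -1.50 and -0.04, and with the block their adjusted p-values were 0.917 and 0.9998. Ngp was above background on 1 of 3 arrays of each group, at -4.92 on control-vector replicate 1 and at -5.78 on Bach2-vector replicate 3. Mmp9, at -6.74, -6.31 and -6.42 against -8.21, -6.99 and -5.34, and Cd177, at -4.34, -4.66 and -4.92 against -5.02, -5.85 and -4.23, were dim in both groups and overlapped. Over the 9 members tested the median difference was -0.89, against -0.02 over all genes tested.

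Genes of other neutrophil compartments give the setting of these values. Of the 10 primary granule genes, 0 rose and 0 fell between the vectors, and all 10 were above background on every MPP array; Mpo, which encodes myeloperoxidase, was at 6.77, 6.90 and 6.75 with the control vector and at 6.43, 6.52 and 6.56 with the Bach2 vector. Of 15 other granule, vesicle and membrane genes of neutrophils tested, 2 fell and 0 rose: Adam8, a membrane metalloprotease, fell 13.1-fold (adjusted p = 0.00888) and Slpi, a leukocyte protease inhibitor, 6.67-fold (adjusted p = 0.00587). Among 10 regulators of neutrophil development, 1 fell, Cebpd, a C/EBP family factor, by 3.23-fold (adjusted p = 0.0108). Cebpe was not among them, at 4.71, 3.88 and 3.91 against 4.68, 3.55 and 4.09. Of 8 monocyte and macrophage markers 1 passed as lower, the complement receptor gene C5ar1. It was above background on all 3 control-vector arrays and on none with the Bach2 vector, so that it was tested only because of the group where it is high. The summed signal of these 8 markers ranged from 26.5 to 40.3 times the 75th percentile with the control vector and from 18.1 to 34.8 with the Bach2 vector. Their part in the fall of Mmp8 was not tested.

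Bach2-vector B220+ cells, against both 2-day MPP groups, had more Ngp, Camp and Fcnb transcript, and less Mmp8 than the control-vector MPPs. Of the 4 genes Ltf, Ngp, Camp and Lcn2, 2 passed (Ngp and Camp), and Ltf and Lcn2 did not. Ngp was at -0.79, -1.25 and -0.83 in the B220+ cells and at -4.92, -8.14 and -7.38 with the control vector, where only the first was above background. Camp was at 2.66, 3.62 and 2.51 in the B220+ cells and between -3.24 and -1.07 with the control vector. Fcnb was at -0.37, -0.81 and -1.11, above all 6 arrays of both MPP groups. None of these 3 genes had overlapping groups. Against the control vector Ngp rose by 5.85 on the log2 scale (adjusted p = 0.00288), or by 3.60 with normexp background correction; with 1 of 3 control arrays above background its size is uncertain, and it met the filter on dim probes through the B220+ arrays. Camp rose 28.7-fold (adjusted p = 0.00382) and Fcnb 7.93-fold (adjusted p = 0.00204), while Mmp8, at -2.73, -3.10 and -2.61, fell 36.4-fold (adjusted p = 0.00108). Cd177, at -5.69, -6.22 and -6.75 with the last below background, fell 2.99-fold with an adjusted p of 0.0474, a call lost in 13 of 18 alternative settings. In all 5 of 9 members passed, 3 higher and 2 lower, where 12.1% of 17008 genes passed, 4.64% higher and 7.44% lower. With each array scaled to its median in place of its 75th percentile, the median difference over all genes moved from -0.29 to 0.03 and the share of higher genes among all calls from 38.4% to 60.0%, while Ngp, Camp and Fcnb still rose and Mmp8 still fell. With a filter that asks for signal above background on all arrays, 6 members were tested and 3 passed (14.7% of genes). Without overlap were 5 members in the higher direction (11.0% of all genes) and 3 in the lower (23.5%).

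Against the Bach2-vector MPPs, 4 of 9 members passed, all of them higher in the B220+ cells, where 6.16% of genes passed and 2.0% as higher; the array median again moved the share of higher calls over all genes, from 32.5% to 55.1%, and left the same 4 members called. Ngp, above background on 1 of 3 Bach2-vector arrays, rose by 6.28 on the log2 scale (adjusted p = 0.0035), or by 3.78 with normexp. The other rises were 59.7-fold for Camp (adjusted p = 0.00252), 44.0-fold for Chil3 (adjusted p = 0.00405) and 22.0-fold for Fcnb (adjusted p = 0.00056). Chil3 was at 5.21, 4.09 and 5.35 in the B220+ cells, above every other array of the series. Against the control vector it was 4.56-fold higher without overlap and did not pass (adjusted p = 0.0931). Ltf, at 0.23, 0.74 and 1.83, was above all 6 other MPP arrays, and did not pass in either comparison (3.31 ± 1.17, adjusted p = 0.1003, and 3.25 ± 1.17, adjusted p = 0.140). Lcn2, at 2.31, 1.05 and 4.86, overlapped with both MPP groups. For Mmp8 the difference from the Bach2-vector MPPs was 0.91 ± 0.61 (adjusted p = 0.378), and Mmp9, at -7.36, -8.41 and -7.96, was above background on 1 of 3 arrays. The median over the members tested was 2.19 against the control vector and 3.25 against the Bach2 vector, beside -0.29 and -0.25 over all genes tested. All 3 B220+ arrays lay on slide 1 with replicate 1 of each MPP group, and both comparisons share the B220+ arrays.

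**Figure D2:**
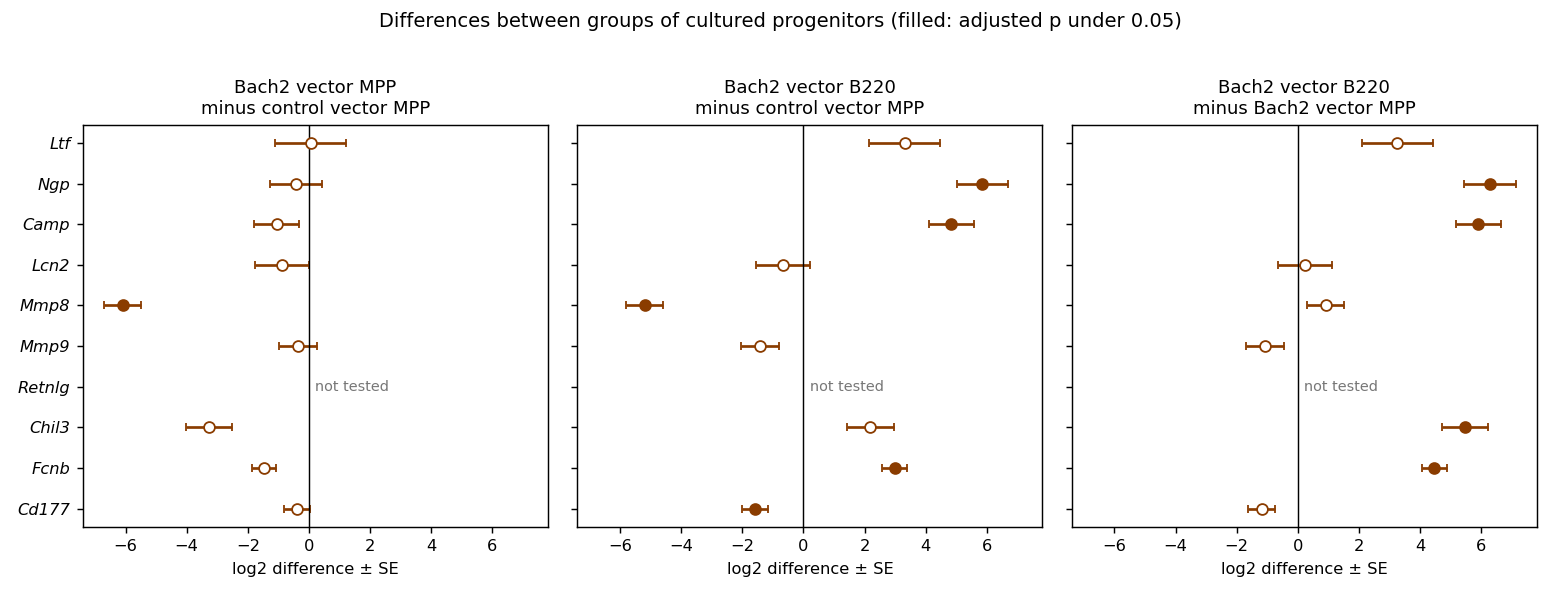
Difference in level of each member (x axis, log2 difference with its standard error) for 3 comparisons among the cultured progenitor groups (3 arrays each); filled points have an adjusted p under 0.05. Mmp8 lies at -6.09 and -5.19 in the comparisons with the control vector and at 0.91 between the Bach2-vector groups, whereas Ngp, Camp and Fcnb are to the right of 0 in both comparisons of the B220+ cells.

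Of the 10 primary granule genes, 0 rose and 3 fell against the control vector, namely Prtn3 (4.13-fold, proteinase 3), Ms4a3 (2.60-fold, a membrane protein of granulocyte precursors) and Ctsc (3.18-fold, the protease that activates granule serine proteases); Prtn3 and Ms4a3 also fell against the Bach2 vector. Mpo was at 6.69, 6.59 and 6.90. Among relatives of the members, the chitinase-like genes Chil1 and Chil4 rose against the Bach2-vector MPPs, Chil4 by 11.0-fold (adjusted p = 0.0147) and Chil1, above background on 1 of 3 Bach2-vector arrays, by 14.1-fold (adjusted p = 0.0430). Of the 15 other granule, vesicle and membrane genes, 1 rose and 3 fell against the control vector: Itgb2, the beta chain of leukocyte integrins, rose 2.10-fold, while Adam8 fell 7.09-fold, Fpr2, a formyl peptide receptor, 12.6-fold and Slpi 2.46-fold. Against the Bach2 vector 3 rose (Anxa1, Itgb2 and Slpi) and 1 fell (Mmp25). Mmp25 was below background on all 3 B220+ arrays, so that it met the filter on dim probes only through the groups where it is higher. It did not pass with the replicate block. Of the 10 regulators, Irf8, a factor of monocyte and dendritic lineages, rose 3.40-fold and Cebpb fell 1.92-fold against the control vector, and 2 rose against the Bach2 vector, Irf8 by 2.59-fold and Cebpd by 1.97-fold. Cebpe was at 4.62, 4.35 and 5.35, beside 3.55 to 4.71 on the arrays of the other MPP groups, and did not pass. Of 6 eosinophil, basophil and mast-cell markers tested 1 rose, Prg2, the eosinophil major basic protein, at 2.77, 2.33 and 3.45 in the B220+ cells and between -8.08 and -4.45 with the control vector. The summed signal of these 6 markers ranged from 25.2 to 142.9 times the 75th percentile in the B220+ cells, from 8.53 to 23.8 with the control vector and from 21.1 to 54.0 with the Bach2 vector. The part of such cells in the granule gene values was not tested.

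In anti-IgM-stimulated FoB cells, all 7 members that could be tested had higher mean levels in Bach2KO than in WT cells. The same order was seen in each of the 3 replicate pairs, except that Mmp8 was below background on both arrays of replicate 1. That pair gives no direction for Mmp8. Ngp was at -6.16, -2.50 and -3.14 in WT and at -2.23, 0.50 and -0.31 in Bach2KO cells, in the order of the replicates, with the first WT value below background. Ltf was at -5.37, also below background, -1.85 and -3.08 in WT and at -1.85, 0.33 and 0.28 in Bach2KO cells. Camp was at -3.61, -0.65 and -1.42 against -0.41, 1.75 and 1.52. For these 3 genes replicate 1 was the lowest array of each genotype, and the Bach2KO array lay above the WT array in every pair. The means were 9.56-fold higher for Ngp, 8.11-fold for Ltf and 7.19-fold for Camp.

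The other 4 tested members were also higher in Bach2KO cells, by smaller factors. Lcn2 was at -2.30, -1.01 and -1.54 in WT and at -0.62, 0.51 and 0.47 in Bach2KO cells, 3.33-fold higher and without overlap. Chil3 was at -3.25, -1.76 and -1.71 against -1.80, 0.32 and 0.35, a 3.64-fold difference with an overlap at replicate 1. Retnlg, at -6.79 (below background), -1.77 and -3.34 against -3.00, -0.69 and -0.20, was 6.37-fold higher, and Mmp8, above background on 1 WT array at -3.84 and on 2 Bach2KO arrays at -2.89 and -2.87, was below it on both arrays of replicate 1, so that no fold is given. Of the 3 members not tested, Fcnb was below background on all 6 arrays, and Cd177 and Mmp9 were below it on all WT arrays. Cd177 was above background on 2 Bach2KO arrays, at -4.66 and -4.32, and Mmp9 on 1, at -4.72, and no fold is given for either.

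Without a pairing term 0 of these 7 members passed (limma), where 2.72% of 13102 genes passed and 2.21% as higher; 5 of the 7 had an unadjusted p under 0.05, as had 11.1% of all genes tested. Same-numbered arrays of the 2 genotypes deviated together (correlations of 0.86, 0.72 and 0.53), and with the replicate number as a block all 7 passed, with adjusted p-values from 1.235e-07 for Ngp to 0.0001439 for Mmp8, where 22.7% of genes passed and 9.58% as higher. The value for Mmp8 rests in part on replicate 1, where both of its arrays were below background. Replicate 1 of both genotypes lay on slide 1 and replicates 2 and 3 on slide 2. On slide 2 alone 5 of 7 passed (3.88% of genes), namely Ltf, Ngp, Camp, Lcn2 and Chil3, and the same 5 passed without Bach2KO replicate 1 (3.4% of genes). With slide as a block all 7 passed (9.2% of genes). With another background correction (normexp) the 7 differences were smaller, 0.36 for Mmp8 to 1.89 for Camp, and 0 passed. With other scalings of each array the median over all genes lay between -0.37 and 0.01, and all 7 members stayed higher in Bach2KO cells with 0 passing. The median difference of the 7 was 2.67, against -0.16 over all genes tested. Their 3 members without overlap (Ngp, Camp and Lcn2) compare with 8.16% of all genes. The labels speak of 1 RNA sample of each genotype, so the arrays may be technical replicates and the p-values then measure only the spread between arrays.

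**Figure D3:**
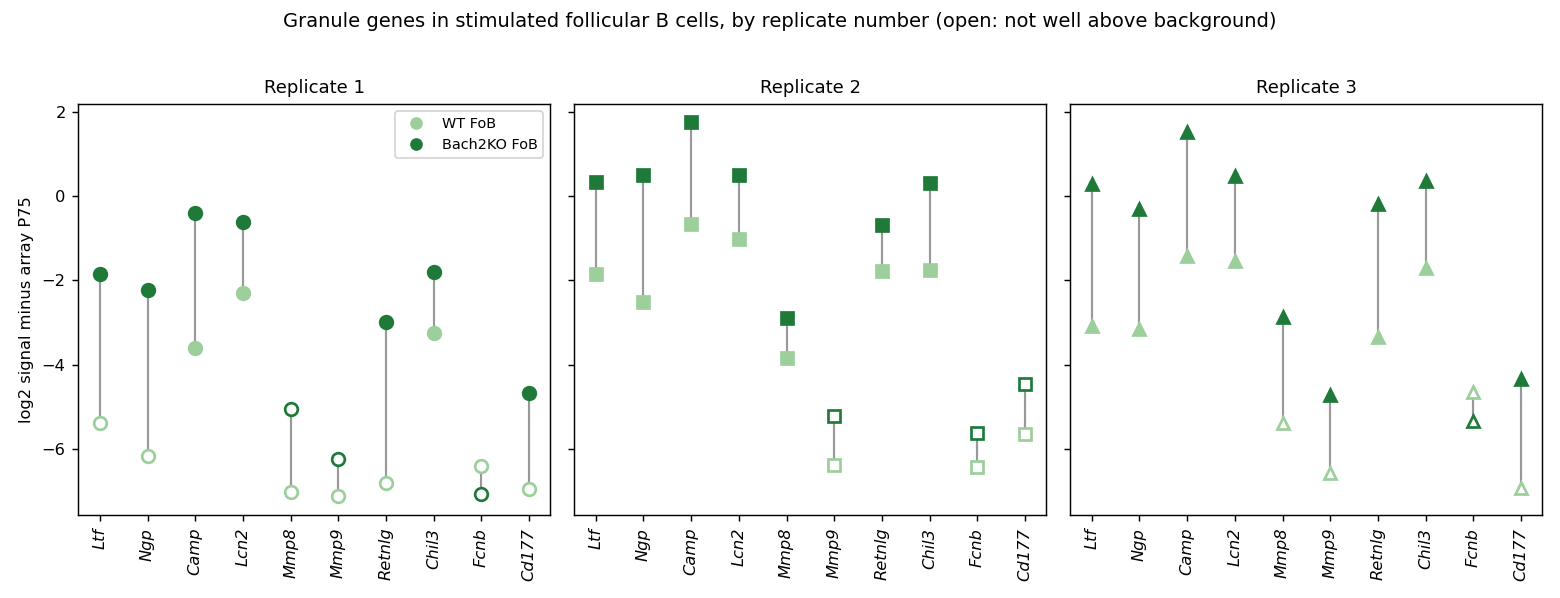
Level of each member (log2 signal minus the array's 75th percentile) in stimulated FoB cells, one panel for each replicate number, with WT in light and Bach2KO in dark green, joined by a grey line; open points are not well above background. The Bach2KO point is above the WT point for 9 members in every panel, and Fcnb, below background on all 6 arrays, is the exception. Where both points of a pair are open their order is not resolved. This holds for Mmp8 in replicate 1, Mmp9 in replicates 1 and 2, and Cd177 in replicate 2.

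Other genes of neutrophils moved in these cells too. Of 12 other granule, vesicle and membrane genes tested 3 rose, Slpi 15.1-fold (adjusted p = 0.00571), Anxa1, a phospholipid-binding protein of neutrophils and other leukocytes, 5.85-fold (adjusted p = 0.0168) and Fpr1, a formyl peptide receptor above background on 1 WT array, 4.05-fold (adjusted p = 0.0494), and 0 fell. With the replicate block 8 rose, S100a8 and S100a9 among them, and 1 fell. S100a9, a subunit of calprotectin, was at -1.33, 2.55 and 1.69 in WT and at 2.77, 4.92 and 4.92 in Bach2KO cells, low on replicate 1 as the members were. Of the primary granule genes, 4 could be tested and 0 passed without the block and 1, Lyz2, rose with it; Prss57, Ms4a3 and Bpi were below background on all 6 arrays. Of 8 regulators tested 2 passed as higher. Cebpb rose 3.50-fold (adjusted p = 0.0233). Cebpd was below background on all WT arrays and at -2.66, -2.13 and -1.46 in Bach2KO cells, so that it met the filter on dim probes only through the group where it is high. Cebpe was below background on all WT arrays and above it on 2 of 3 Bach2KO arrays. Of markers of other cells, Prg2 rose 3.48-fold (limma, adjusted p = 0.0218) and the haemoglobin gene Hba-a1 13.3-fold (adjusted p = 0.0391). Prg2 was above background on 1 WT array and on 3 Bach2KO arrays. It thus met the filter on dim probes through the group where it is high, and the size of its rise is uncertain. Of 8 monocyte and macrophage markers 4 were tested and 0 passed. With the replicate block 1 of these rose, Cd14, at -4.62, -3.95 and -3.97 in WT and at -3.06, -2.06 and -2.73 in Bach2KO cells, and 1 fell, Ly86. The summed signal of 5 erythroid markers ranged from 0.368 to 1.61 times the 75th percentile in WT and from 4.18 to 16.0 in Bach2KO cells. That of 6 eosinophil, basophil and mast-cell markers ranged from 0.0768 to 0.114 and from 0.206 to 0.319, with 5 of the 6 below background on every array, and that of 8 monocyte and macrophage markers from 97.9 to 180.0 and from 64.0 to 83.8. The last sum is mostly that of Ly86, which was at 7.43, 6.45 and 6.54 in WT and at 6.28, 5.59 and 5.96 in Bach2KO cells. The part of these other cell types in the granule gene values was not tested.

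In CLPs the comparison of DD with WT cells gave no member that passed (0 of 9; limma), where 0.00606% of 16493 genes did, and none had an unadjusted p under 0.05 (0 of 9, against 3.77% of all genes). The WT group was split. Its replicate 3 had the highest level of the group for all 10 members and was the only WT array with all 10 above background, while replicates 1 and 2 had 7 and 5. Camp was at -4.51, -3.27 and 4.17 in WT and at -1.07, 4.02 and -2.44 in DD cells. Chil3 was at -3.27, -1.33 and 2.93 against -1.14, 0.61 and -4.09, and Ltf at -4.01, -5.84 and 1.497 against -3.42, -3.12 and -4.20. WT replicate 3 thus stood above its fellows by several log2 units, and DD replicate 2 stood high for Camp. Lcn2 was at -3.45, -2.44 and 1.15 against -3.01, -1.29 and -2.79, and Mmp8, above background on WT replicate 3 only, at -2.11 there, was at -4.34 and -4.04 on DD replicates 1 and 3. Ngp was above background on 1 of the 6 arrays, again WT replicate 3, at -2.28.

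Mmp9, Retnlg, Fcnb and Cd177 showed the same array on top, at -3.67, -0.46, -4.30 and -4.13. Within the WT group the median range of the members was 6.16 log2 units, beside 0.84 over all genes above background on at least 1 array of that group, and it was 2.70 against 0.99 in the DD group. Each replicate number lay on a slide of its own, with 1 array of each genotype. On slide 3 all 10 members were lower in DD cells, by -1.78 for Retnlg to -7.02 for Chil3, whereas on slide 1 Camp, Mmp8 and Chil3 were higher in DD cells by 3.45, 3.61 and 2.13. The median difference of the 9 members tested was -0.79 with all arrays and 0.69 without WT replicate 3, against 0.04 and -0.01 over all genes. Without that array 8 of 9 were higher in DD cells, as were 48.7% of all genes. Again 0 passed (0.0% of all genes), and 2 of 9 had an unadjusted p under 0.05, as had 1.84% of all genes. Some other granulocyte genes stood high on the same array: in WT CLPs S100a8 was at -7.67, -7.54 and 2.20, Prg2 at -5.51, -3.62 and 3.17 and Epx at -6.37, -5.44 and -1.09. Other markers of eosinophils, basophils and mast cells did not. Mcpt8, at -2.15, -1.15 and -2.89, and Fcer1a, at -3.28, -2.84 and -5.12, were lowest on that array, and Gata2 and Cpa3 were highest on other WT arrays. Mpo was not raised on WT replicate 3, at 4.72, 4.53 and 4.55, nor was the mean level of the 10 primary granule genes, at 0.21, 0.87 and 0.85. The summed signal of the 6 eosinophil, basophil and mast-cell markers ranged from 1.73 to 10.9 times the 75th percentile in WT and from 0.782 to 3.72 in DD cells. The highest WT sum is mostly that of Prg2. Whether other cells in the pool gave these values was not tested.

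**Figure D4:**
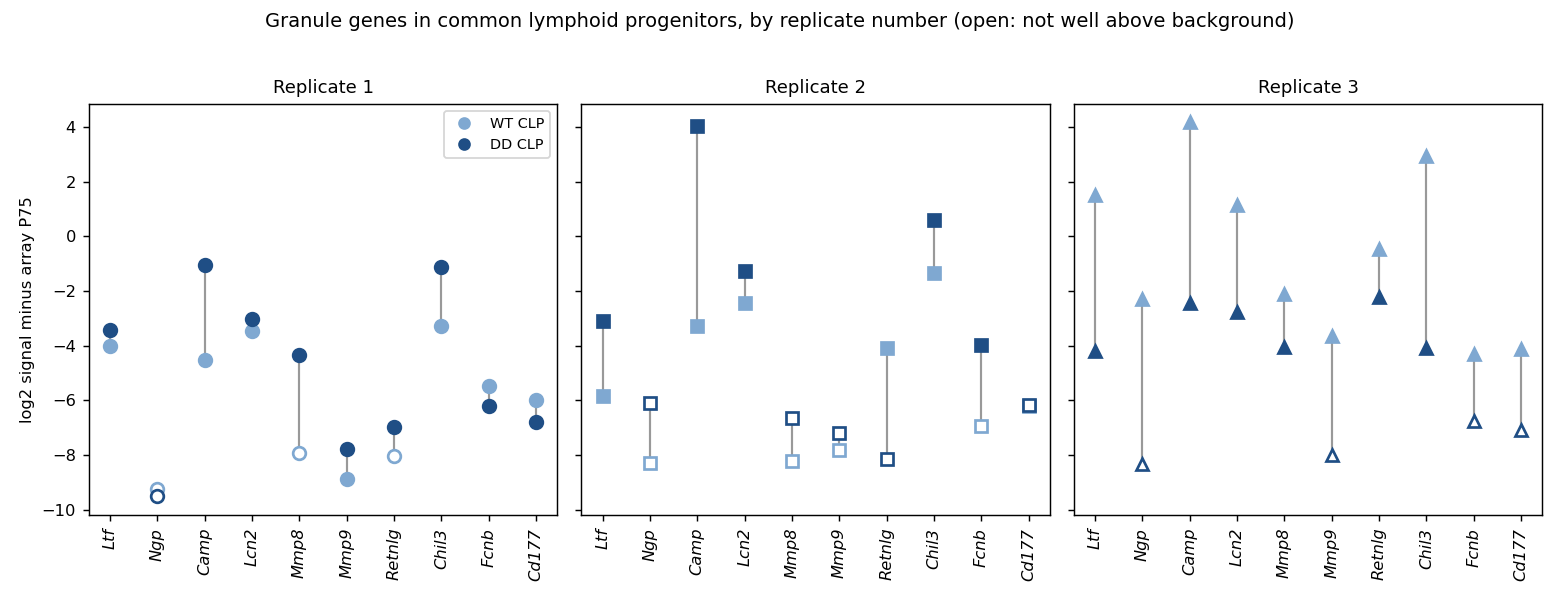
Level of each member (log2 signal minus the array's 75th percentile) in CLPs, one panel for each replicate number, WT in light and DD in dark blue, joined by a grey line; open points are not well above background. In the panel of replicate 3 WT is above DD for all 10 genes. In the panels of replicates 1 and 2 DD is above WT for Camp, Chil3, Ltf and Lcn2, and in that of replicate 1 also for Mmp8 and Mmp9. Where both points of a pair are open their order is not resolved. This holds for Mmp8, Mmp9 and Cd177 in replicate 2 and for Ngp in replicates 1 and 2.

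Within groups the members varied together. After each group's mean was removed, the correlation over the 21 arrays was above 0 for all 45 pairs of members, with a median r of 0.72 (Spearman's rho 0.64), from 0.03 for Retnlg and Fcnb to 0.90 for Ngp and Camp. With group means kept, r ranged from -0.43 for Retnlg and Fcnb to 0.87 for Chil3 and Fcnb, and 40 of 45 pairs were above 0. These values are a description over 21 arrays that share 7 groups, 3 experiments and their slides, and levels below background were included. Single arrays stood apart for most members. WT CLP replicate 3 was the highest of its group for all 10, and Bach2KO FoB replicate 1 the lowest of its group for all 10. How far such arrays set the correlations was not tested. Ngp followed the other members most closely within groups (r = 0.94 with their median), and Retnlg (r = 0.54) and Fcnb (r = 0.58) least. Among 16618 genes, those most like the members' median over the 21 arrays were S100a8 (r = 0.83), S100a9 (r = 0.81), Chil1 (r = 0.79), Itgb2l (r = 0.78), Ern1 and Chil4 (both r = 0.75), Bcl2l15 (r = 0.73), Klra2, Ambp (both r = 0.72) and Clec4a1 (r = 0.71). Within groups the closest were Lhfpl5 (r = 0.88), Serpinb3d and Mrgpra2a (both r = 0.87), S100a8 (r = 0.87) and Olfr299 (r = 0.85).

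**Figure D5:**
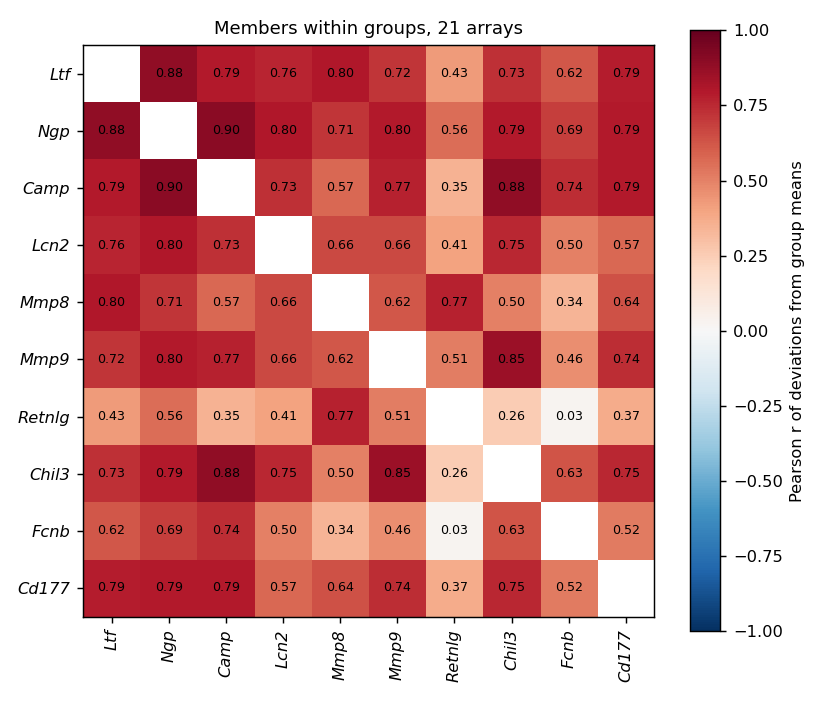
Pearson correlation, after group means were removed, between each pair of members over 21 arrays (colour scale from -1 to 1, values in the cells). All 45 pairs are above 0, the highest being Ngp with Camp (0.90) and the lowest Retnlg with Fcnb (0.03). Levels below background are included, as are arrays that stood apart for all members, such as WT CLP replicate 3.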

How the data were processed

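The 21 arrays were single-colour Agilent mouse arrays of RNA, put into 7 groups of 3 by the labels. The authors deposited scanner output whose values are background-corrected intensities, written by Feature Extraction 10.7.3.1 per the file headers (the submitters' processing notes give version 9.1); the deposited value table holds the same intensities. Of 55681 gene probes 26413 were named through their RefSeq accession, and the brightest probe stands for a gene. The deposited intensities were turned here into log2 levels minus each array's log2 75th percentile.

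Comparisons stayed within an experiment and used limma 3.58.1 (R 4.3.3; lmFit and eBayes, the 3 MPP groups sharing 1 fit, Benjamini-Hochberg over all genes, passed at an adjusted p under 0.05). A gene was tested if 3 or more arrays of its experiment showed its probe well above background and each group had 2 or more values. The code was tested on simulated data. Tables and plots used Python 3.11.15, numpy 2.4.6, pandas 2.3.3 and matplotlib 3.10.9, with the R package data.table (version 1.17.8) to read files. The number of arrays limits the precision. Where nothing says that arrays came from separate animals or cultures, p-values measure only the spread between arrays, which may be technical.

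The replicate number was taken from the labels. Same-numbered arrays deviated from their group means together in CLPs (r = 0.43, 0.39 and 0.22), between the vectors (0.65, 0.41 and 0.30) and in FoB cells (0.86, 0.72 and 0.53). All were over the limit of 0.1 set for use of the number as a block. These same-numbered arrays also shared a slide. Arrays with different numbers reached 0.31 between the vectors and 0.50 in FoB cells, in both cases on 1 slide. A shared number is thus not told apart from a shared slide by this limit. Same-numbered arrays of the B220+ cells fell short of the limit (lowest r of -0.06 and 0.08 with the other 2 MPP groups).

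The members and the gene lists were chosen with earlier results of these data known. All members are named; of the other lists, the genes that passed and those with the smallest unadjusted p could be named, and for likeness the 10 and 5 genes with the highest r. Alternatives were normexp background correction (offset 50), quantile normalization, the array median or the percentile of detected probes as scale, other filters, outlier spots kept, a robust variance trend, the mean of all probes, replicate and slide blocks, fewer arrays in the fit, and each replicate left out. The spot mean was not among the columns used, so normexp was run on the spot median in its place. Slide 2 alone was added after seeing the data. Some marker genes are not reported here.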

Additional observations from a re-analysis of the deposited data

How the results depend on the processing

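No member that passed changed direction under any alternative run. Of 996 alternative values 29 changed sign, none of them of a member that had passed. The 996 include counts of members called, which cannot change sign, and values over the 7 groups. Of the members' own differences, 12 of 157 changed sign in CLPs, 10 of 177 between the vectors and 0 of 129 in FoB cells. For the B220+ cells it was 2 of 168 against the control vector and 4 of 168 against the Bach2 vector. With the replicate block the count of members called went from 1 to 2 between the vectors and from 0 to 7 in FoB cells; in CLPs it stayed at 0, and for the B220+ cells, whose numbers do not pair the arrays, the counts stayed within 1.5 times. A robust variance trend also gave 2 between the vectors. In FoB cells the slide block gave 7 and slide 2 alone 5. The filter on all arrays left 3 members called for the B220+ cells against the control vector, since Ngp and Cd177 were then not tested. Leaving out 1 array at a time gave 1 to 2 members called between the vectors and 0 to 5 in FoB cells.

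Sign changes with other settings were small in CLPs (Fcnb 0.0023 with the array median). Between the vectors Mmp9 was at 0.031 with normexp, and at 0.20 on slide 2 alone, where Ngp was at 0.75. Mmp9 was at 0.0034 with normexp in the B220+ cells against the control vector. With the slide block Lcn2 was at -0.50 and Mmp8 at -0.20 against the Bach2 vector. With 1 array left out, the log2 differences in CLPs spanned -0.55 to 4.06 for Camp, -2.34 to 0.76 for Chil3, -0.91 to 0.57 for Fcnb, -1.72 to 0.58 for Lcn2, -2.32 to 1.35 for Ltf, -1.92 to 0.69 for Mmp9 and -3.51 to 0.29 for Retnlg, and -1.52 to 0.69 for the members' median. Between the vectors they spanned -1.15 to 0.52 for Ngp, -1.07 to 1.11 for Ltf, -1.11 to 0.33 for Mmp9 and -0.80 to 0.017 for Cd177. For Lcn2 they spanned -1.73 to 0.17 in the B220+ cells against the control vector and -0.84 to 1.06 against the Bach2 vector. The cause of these changes was not tested. The dim levels of Ngp and Mmp9 in 2-day MPPs, and of Mmp8, Mmp9, Fcnb and Cd177 on FoB arrays, lie near background and limit what can be resolved.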
